A study of Arabidopsis thaliana with 24 samples.

Results

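The nitrate responses of 2 Arabidopsis thaliana mutants, nlp7-1 and hbi-q, were set against each other gene by gene. A response is the log2 fold change of a transcript with KNO3 over mock, and the difference is the response in nlp7-1 minus that in hbi-q, so a value above 0 means a higher response in nlp7-1. A locus entered when it was listed for both mutants with a base mean of at least 50 in each table, where the base mean is the average of normalized read counts over the libraries of a fit. This kept 17575 of the 21790 loci listed for both, and of the 23774 loci listed for either mutant or for wild type. The libraries were made from seedlings in the Col-0 background, grown for 7 days on 7 mM KNO3 and then kept nitrogen-free for 2 days. The 4 groups used were nlp7-1 with 10 mM KNO3 for 3 h, nlp7-1 with mock, hbi-q with the same KNO3 treatment and hbi-q with mock, each with 3 libraries labelled as biological replicates, which makes 12 of the 24 libraries of the series. The mock is called KCl in the titles of the nlp7-1 libraries and in the tables of all 3 genotypes. Wild-type Col-0 under the same 2 treatments served as a point of orientation. The labels describe neither the nlp7-1 allele nor which HBI genes hbi-q lacks.

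NLP7 is an RWP-RK transcription factor of the NIN-like family that moves into the nucleus when nitrate arrives, binds nitrate itself and switches on genes of nitrate uptake, reduction and signalling. HBI1 and its relatives BEE1, BEE2 and BEE3 are basic helix-loop-helix factors known from growth promotion by brassinosteroid and gibberellin and from the trade-off between growth and immunity. The series title links the HBI factors with reactive oxygen species in nitrate signalling. Setting the mutants side by side asks where their nitrate responses differ, with no wild-type response in the difference. Such a difference can come from either mutant departing from wild type, in either direction.

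The values deposited per gene are those of the authors' DESeq2 fits, so values of single libraries, their overlap between groups and the depth of a library are not shown. Base means summed to 2.09e+07 in the nlp7-1 table and to 2.01e+07 in the hbi-q table. The nlp7-1 table gave the larger errors, with a median standard error of 0.186 on the log2 scale, against 0.0990 in the hbi-q table. In the authors' deposited tables, NLP7 had a response of 1.15 ± 0.36 (standard error) in nlp7-1 and 0.48 ± 0.08 in hbi-q, and the difference of 0.67 ± 0.36 did not pass the test (adjusted p = 0.248, z test with Benjamini-Hochberg adjustment). Its base mean was 446 in the nlp7-1 table and 1057 in the hbi-q table, which were normalized separately, so these levels were not tested.

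The responses of both mutants largely ran together. Across the loci kept, the Pearson correlation of the responses was 0.869 and the Spearman correlation 0.808, as a description over genes that are not independent. The SD of the responses over loci was 0.816 in nlp7-1 and 0.830 in hbi-q. By the authors' deposited tables, with an adjusted p under 0.05 and at least 2-fold, 1557 loci (8.86%) rose and 1136 (6.46%) fell in nlp7-1, against 1779 (10.1%) and 1026 (5.84%) in hbi-q. Of these, 1142 loci rose in both mutants and 699 fell in both. A further 415 rose in nlp7-1 alone and 635 in hbi-q alone by this criterion. The difference itself was called higher for 29 of the 415 and lower for 52 of the 635. Another 435 fell in nlp7-1 alone and 327 in hbi-q alone, with 28 called lower and 44 called higher. Over all loci the difference was called higher for 0.853% and lower for 0.939%. These loci were chosen by the same responses, so their counts describe and support nothing.

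The difference was tested as its ratio to the root of the summed squared errors, two-sided, and called at an adjusted p under 0.05 with at least 2-fold. It was called for 315 loci (1.79%), with 150 (0.853%) higher and 165 (0.939%) lower in nlp7-1. Without the 2-fold minimum the adjusted p passed for 918 loci (5.22%), 354 (2.01%) higher and 564 (3.21%) lower. The median difference over all loci was -0.03. These counts depend heavily on the error assumed. The central spread of the test ratio was 1.76 times that of a standard normal, and scaling by it left 27 calls, while a t distribution with 8 degrees of freedom left 11. Those 11 loci were also called under each of the other 8 settings tried. They are BT1, NIA1, SAG21, SULTR1;2, ASN2, AT3G18560 and RFNR1, lower in nlp7-1, and CYP716A2, AT5G36130, AT5G35940 and AT3G23510, higher. The other genes called below rest on the normal approximation and the deposited standard errors. All gene lists used below were chosen with earlier results of these data known, so their counts are a description.

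**Figure D1:**
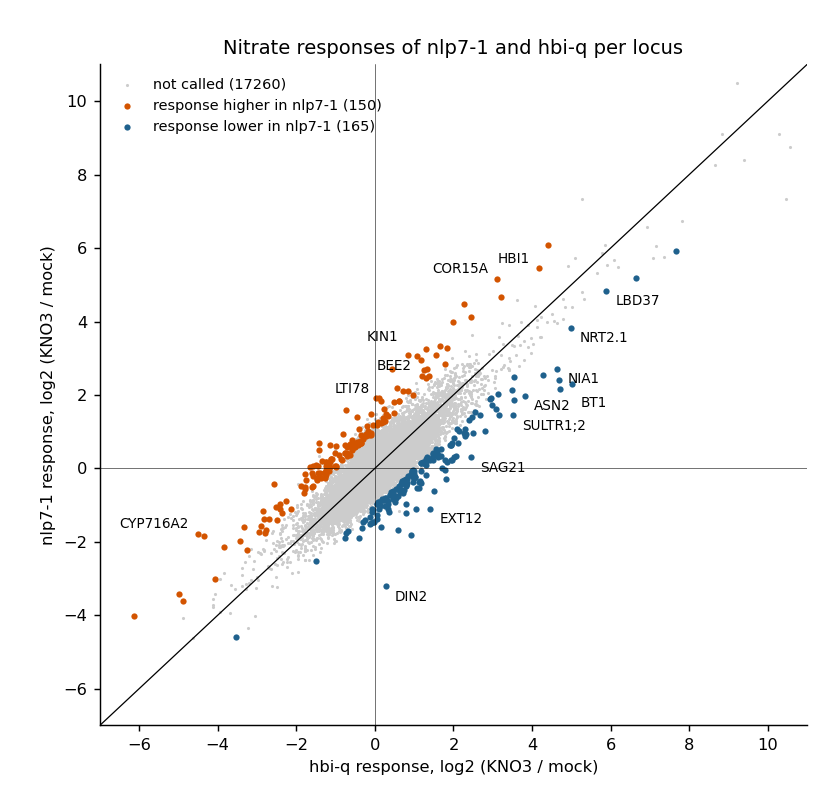
Response of each of the 17575 loci in nlp7-1 (vertical axis) and in hbi-q (horizontal axis), both as log2 of KNO3 over mock, with the line of equal responses. Points above the line in orange are the 150 loci with a called higher response in nlp7-1, and points below it in blue are the 165 with a called lower one. NIA1, BT1, ASN2 and SULTR1;2 lie below the line with positive responses in both mutants, and CYP716A2 lies above it with negative ones.

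Among loci that respond to nitrate in wild type, more were called weaker in nlp7-1 than called stronger. Of 1646 loci that rose in wild type by the authors' deposited table (9.37% of all kept), 77 (4.68%) had a lower and 23 (1.40%) a higher response in nlp7-1, beside 0.939% and 0.853% over all loci. Their median response was 1.23 in nlp7-1, 1.42 in hbi-q and 1.38 in wild type, from the authors' deposited tables. Among 900 loci that fell in wild type (5.12% of all kept), 51 (5.67%) had a higher response in nlp7-1, a weaker fall or a rise, and 5 (0.556%) a lower one. Their median responses were -1.21 in nlp7-1, -1.28 in hbi-q and -1.31 in wild type in the authors' deposited tables. The hbi-q and wild-type tables share the base mean of every locus, as 1 joint fit would give, so wild-type libraries may bear on the normalization and errors of the hbi-q responses. Wild type lay nearer hbi-q for 141 of the loci called lower (85.5%) and for 110 of those called higher (73.3%). Over all loci it was nearer hbi-q for 73.2%, so the share of the loci called higher is at the background. The called loci were chosen by these same responses, so their shares describe and support nothing. The larger errors of the nlp7-1 table also enter this nearness, and their part was not tested.

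Genes of nitrate reduction leaned towards lower responses in nlp7-1. NIA1, which encodes a nitrate reductase, responded with 2.42 ± 0.22 in nlp7-1, 4.68 ± 0.08 in hbi-q and 3.50 ± 0.07 in wild type in the authors' deposited tables. As a fold change this was 5.35-fold in nlp7-1 and 25.6-fold in hbi-q. The difference was -2.26 ± 0.24 (adjusted p = 4.5e-18). NIA1 was thus induced in both mutants, below the wild-type value in nlp7-1 and above it in hbi-q. The second reductase gene, NIA2, responded with 1.03 ± 0.16 in nlp7-1 and 2.15 ± 0.07 in hbi-q in the authors' deposited tables, a difference of -1.12 ± 0.18 (adjusted p = 1.59e-07). For RFNR1, a root-type ferredoxin-NADP reductase that passes electrons to ferredoxin, the authors' deposited tables gave 2.13 ± 0.11 in nlp7-1 and 3.49 ± 0.05 in hbi-q, and the difference was -1.36 ± 0.12 (adjusted p = 5.43e-24).

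The next step of the pathway differed less. NIR1, the nitrite reductase, responded with 5.66 ± 0.14 in nlp7-1 and 6.08 ± 0.06 in hbi-q in the authors' deposited tables, and the difference of -0.41 ± 0.15 did not pass the test (adjusted p = 0.0787). RFNR2, the paralogue of RFNR1, responded with 4.03 in nlp7-1 and 4.13 in hbi-q in the authors' deposited tables, a difference of -0.10 ± 0.13 (adjusted p = 0.66). Of the 16 genes of nitrate reduction and reductant supply, 3 were called lower and 0 higher in nlp7-1, beside 0.939% and 0.853% of all loci. In this list 15 lay below 0, and the median difference was -0.48. Within classes of GC content NIA2 lost its call by falling short of 2-fold, which left 2. The pentose phosphate gene PGD1 (-0.86 ± 0.25), the root ferredoxin FD3 (-0.85 ± 0.27) and the glucose 6-phosphate dehydrogenases G6PD2 (-0.50 ± 0.13) and G6PD3 (-0.46 ± 0.14) had an adjusted p under 0.05 but not the 2-fold size. In both mutants 12 of the 16 rose, by the authors' deposited tables.

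Nitrate transporters went in different directions. NPF6.3, the dual-affinity transporter that also senses nitrate, responded with 0.25 ± 0.22 in nlp7-1 and 1.40 ± 0.07 in hbi-q in the authors' deposited tables, a difference of -1.15 ± 0.23 (adjusted p = 0.000122). NRT2.1, the main high-affinity transporter, responded with 3.83 ± 0.28 in nlp7-1, 4.99 ± 0.07 in hbi-q and 3.32 ± 0.07 in wild type in the authors' deposited tables, and neither mutant was tested against wild type. Its difference was -1.16 ± 0.29 (adjusted p = 0.00488). NRT3.1, the partner protein that NRT2.1 needs, had a difference of -0.95 ± 0.25 (adjusted p = 0.00832), just short of 2-fold. The transporter NRT2.4, which is known from nitrogen-starved roots, was the 1 member called higher, at 0.65 ± 0.30 in nlp7-1, -0.44 ± 0.14 in hbi-q and -1.12 ± 0.13 in wild type in the authors' deposited tables, with a difference of 1.08 ± 0.33 (adjusted p = 0.0261). NRT2.5, a transporter of long-starved roots, fell in both, with -3.43 ± 0.26 in nlp7-1 and -4.07 ± 0.12 in hbi-q in the authors' deposited tables, and its difference of 0.64 ± 0.29 did not pass (adjusted p = 0.159). NRT2.2 had the highest responses, 10.51 ± 0.67 in nlp7-1 and 9.22 ± 0.31 in hbi-q in the authors' deposited tables, and its difference of 1.29 ± 0.74 did not pass (adjusted p = 0.27). NRT2.1 and NRT2.2 are near-identical copies, and the labels and headers do not say how reads shared by them were assigned. Of 13 genes of nitrate uptake and storage, 2 were called lower and 1 higher, beside 0.939% and 0.853% of all loci. Their median difference was -0.41. With the median subtracted within classes of transcript GC content, 0 were called lower.

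Nitrogen and sulphur assimilation downstream held some of the clearest differences. ASN2, an asparagine synthetase, responded with 1.98 ± 0.20 in nlp7-1, 3.83 ± 0.09 in hbi-q and 3.66 ± 0.09 in wild type in the authors' deposited tables, a difference of -1.85 ± 0.22 (adjusted p = 5.07e-14). The cytosolic glutamine synthetase gene GLN1;2 stood at 0.26 ± 0.23 in nlp7-1 and 1.37 ± 0.07 in hbi-q in the authors' deposited tables, a difference of -1.11 ± 0.24 (adjusted p = 0.000442). The other 15 genes of ammonium transport and assimilation were not called, and 14 of all 17 lay below 0. Over all loci 0.939% were called lower and 0.853% higher. Within classes of GC content 1 of the 17 was called lower. SULTR1;2, the main transporter for sulphate uptake by roots, responded with 1.44 ± 0.15 in nlp7-1, 3.51 ± 0.08 in hbi-q and 3.39 ± 0.08 in wild type in the authors' deposited tables. That difference of -2.07 ± 0.17 (adjusted p = 2.53e-31) was a 4.19-fold weaker response in nlp7-1. In the sulphur list as a whole, SULTR1;2 included, values lay mostly above 0, with 10 of 14 members there and a median of 0.32. SDI2, a gene induced by sulphur deficiency, was called higher (1.21 ± 0.22, adjusted p = 9.46e-06), while the APS reductase gene APR3 (0.80 ± 0.16, adjusted p = 5.2e-05) and APR1 (0.48 ± 0.12, adjusted p = 0.00725) did not reach 2-fold.

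Among regulators, BT1 differed most. BT1, a BTB and TAZ domain protein known to restrain nitrogen use, responded with 2.30 ± 0.25 in nlp7-1, 5.01 ± 0.16 in hbi-q and 4.30 ± 0.15 in wild type in the authors' deposited tables, or 4.92-fold and 32.2-fold in the mutants. The difference was -2.71 ± 0.29 (adjusted p = 3.6e-17), while its paralogues BT4 (0.30 ± 0.22, adjusted p = 0.406) and BT5 (0.21 ± 0.37, adjusted p = 0.761) were not called. NAC4, a NAC factor linked to lateral root growth in nitrate, had 0.24 ± 0.26 in nlp7-1 and 1.94 ± 0.13 in hbi-q in the authors' deposited tables, a difference of -1.70 ± 0.29 (adjusted p = 8.97e-07). The LOB-domain repressor LBD37 rose in both, with 4.84 ± 0.19 in nlp7-1 and 5.89 ± 0.11 in hbi-q in the authors' deposited tables, a difference of -1.05 ± 0.22 (adjusted p = 0.00025). Its relatives LBD38 (-0.69 ± 0.25) and LBD39 (-1.08 ± 0.61) did not pass.

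The list of other nitrate regulators, which holds BT1, NAC4 and LBD37, had no other called member. Of its 22 members 12 rose in nlp7-1 and 13 in hbi-q by the authors' deposited tables. The difference was called lower for 3 and higher for 0, beside 0.939% and 0.853% of all loci. The median difference was -0.10. The GARP repressors, which dampen nitrate and phosphate genes, held both signs: HHO2 was 0.96 ± 0.26 (adjusted p = 0.0117, short of 2-fold), HRS1 was -0.64 ± 0.22 (adjusted p = 0.0674) and HHO1 was 0.27 ± 1.58 (adjusted p = 0.936). Among 9 NIN-like protein genes 0 were called in either direction with the 2-fold minimum. By adjusted p of the z test alone 0 were higher and 1 lower, beside 2.01% and 3.21% of all loci. That member was NLP3, at -0.81 ± 0.21 (adjusted p = 0.00851), short of 2-fold. At an unadjusted p under 0.05, 2 were higher and 1 lower, a threshold that 8.42% of all loci passed as higher and 14.7% as lower. For 18 genes of cytokinin synthesis, breakdown and response, 0 were called either, 14 lay below 0, and 5 were lower and 1 higher at an unadjusted p under 0.05, beside 14.7% and 8.42% over all loci. IPT3, the nitrate-inducible isopentenyltransferase, responded with 4.21 ± 0.18 in nlp7-1 and 4.52 ± 0.14 in hbi-q in the authors' deposited tables.

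**Figure D2:**
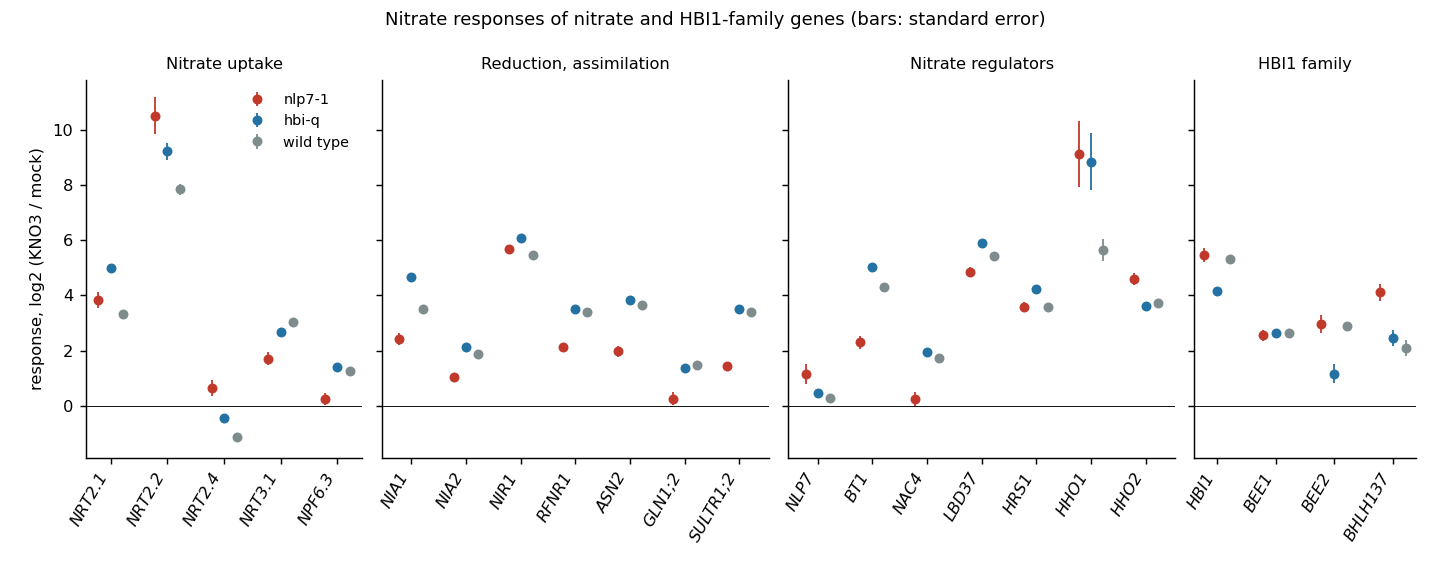
Response to KNO3 over mock (log2, vertical axis) of single genes in nlp7-1, hbi-q and wild type, from the authors' tables, with bars of 1 standard error. NIA1, BT1, ASN2 and SULTR1;2 are lower in nlp7-1 than in hbi-q, NIR1 and BEE1 lie close together, and HBI1, BEE2 and BHLH137 are higher in nlp7-1.

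Of the bHLH genes related to HBI1, 3 of 8 kept were called higher in nlp7-1 and 0 lower, beside 0.853% and 0.939% of all loci. In that list 4 lay above 0 and 4 below. HBI1 responded with 5.46 ± 0.26 in nlp7-1, 4.17 ± 0.12 in hbi-q and 5.30 ± 0.16 in wild type in the authors' deposited tables, a difference of 1.29 ± 0.29 (adjusted p = 0.000883). BEE2 had 2.96 ± 0.34 in nlp7-1, 1.17 ± 0.36 in hbi-q and 2.88 ± 0.16 in wild type in the authors' deposited tables, a difference of 1.79 ± 0.49 (adjusted p = 0.0127). For both genes, nlp7-1 lay close to wild type and hbi-q below it. BHLH137 (AT5G50915) was different, with 4.12 ± 0.30 in nlp7-1, 2.46 ± 0.31 in hbi-q and 2.09 ± 0.28 in wild type in the authors' deposited tables, so here nlp7-1 was the one apart from wild type. Its difference was 1.66 ± 0.43 (adjusted p = 0.00695). BEE1 responded almost equally, with 2.56 ± 0.20 in nlp7-1 and 2.64 ± 0.15 in hbi-q in the authors' deposited tables, and its difference of -0.08 ± 0.25 did not pass (adjusted p = 0.863). BEE3 (-0.19 ± 0.26), CIB5 (0.45 ± 0.33), IBH1 (-0.19 ± 0.19) and PRE6 (-0.95 ± 0.30) were not called, although PRE6 had an adjusted p of 0.0401 and was the 1 member called lower within classes of GC content. Since the labels do not name the mutated HBI genes, an effect of the mutations on their own transcripts cannot be told apart from a response.

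The highest differences belonged to a stretch of chromosome 5 annotated with triterpene genes. CYP716A2 (AT5G36140), a cytochrome P450 of a family that oxidizes triterpenes, fell less in nlp7-1, at -1.78 ± 0.17, than in hbi-q, at -4.51 ± 0.13, or in wild type, at -4.08 ± 0.17, in the authors' deposited tables. The difference was 2.73 ± 0.21 (adjusted p = 3.21e-33). Its neighbour AT5G36130, annotated as a cytochrome P450, had -1.84 ± 0.14 in nlp7-1 and -4.34 ± 0.15 in hbi-q in the authors' deposited tables, a difference of 2.50 ± 0.20 (adjusted p = 6.31e-31). PEN3 (AT5G36150), a pentacyclic triterpene synthase next to them, had -4.03 ± 0.34 in nlp7-1 and -6.12 ± 0.36 in hbi-q in the authors' deposited tables, a difference of 2.09 ± 0.49 (adjusted p = 0.00158). All 3 lie on the minus strand of chromosome 5 in TAIR10.1, from 14209088 to 14209922, from 14212174 to 14213293 and from 14220634 to 14226211, in the order AT5G36130, CYP716A2 and PEN3. They may share reads where their sequences are alike, which the files do not show.

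Root triterpene genes elsewhere leaned the same way. All 9 kept members of that list, PEN3 included, lay above 0, with a median of 0.83. Of these, 2 were called higher, beside 0.853% of all loci. CYP705A12, a P450 of the marneral cluster, was the other called member, with -0.21 ± 0.19 in nlp7-1 and -1.59 ± 0.12 in hbi-q in the authors' deposited tables and a difference of 1.37 ± 0.22 (adjusted p = 1.91e-07). CYP71A16 of that cluster (0.99 ± 0.18), the thalianol synthase THAS1 (0.96 ± 0.17), the marneral synthase MRN1 (0.83 ± 0.22) and the thalianol hydroxylase CYP708A2 (0.82 ± 0.15) had an adjusted p under 0.05 without 2-fold. For THAS1 the responses had opposite signs, 0.79 ± 0.14 in nlp7-1 and -0.17 ± 0.10 in hbi-q, beside -1.02 ± 0.10 in wild type, in the authors' deposited tables.

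Cold acclimation genes had the highest median of all lists, but they were picked as a list because several stood among the highest differences, so their counts describe and support nothing. Of 15 listed genes 10 passed the base mean minimum, all 10 lay above 0, and the median was 1.15. Of these, 5 were called higher, beside 0.853% of all loci. With a base mean minimum of 100, 3 were called. KIN1, a small hydrophilic protein induced by cold and abscisic acid, responded with 3.09 ± 0.29 in nlp7-1, 0.83 ± 0.24 in hbi-q and 0.80 ± 0.24 in wild type in the authors' deposited tables, a difference of 2.25 ± 0.38 (adjusted p = 6.18e-07). LTI78, also known as RD29A, had 1.92 ± 0.27 in nlp7-1, 0.09 ± 0.09 in hbi-q and -0.03 ± 0.09 in wild type in the authors' deposited tables, a difference of 1.82 ± 0.29 (adjusted p = 1.12e-07). COR15B (2.22 ± 0.53, adjusted p = 0.00215) and COR15A (2.05 ± 0.64, adjusted p = 0.037), which encode chloroplast proteins that stabilize membranes on freezing, and the dehydrin LTI30 (1.36 ± 0.30, adjusted p = 0.000695) were the others. In each of the 5, hbi-q lay near wild type and nlp7-1 above both. COR414-TM1 did not follow, with -1.23 ± 0.23 in nlp7-1 and -1.24 ± 0.12 in hbi-q in the authors' deposited tables. None of the 5 was among the 27 loci called with the robust scaling. The labels give no temperature or harvest time of single libraries, so a condition that came with the nlp7-1 libraries cannot be told apart from the genotype.

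The promoters of LTI78 and COR15A, 250 bases before the gene start in the TAIR10.1 RefSeq annotation, were chosen for display after promoters had been scanned for matches. Both genes are known targets of CBF factors through the DRE/CRT element, whose core CCGAC was searched on both strands. Capitals mark that core, read as GTCGG on the other strand, and the G-box CACGTG, the palindrome that bHLH factors bind. The window of LTI78 is chr5:21240467-21240716 on the plus strand and that of COR15A is chr2:17712331-17712580 on the minus strand.
LTI78: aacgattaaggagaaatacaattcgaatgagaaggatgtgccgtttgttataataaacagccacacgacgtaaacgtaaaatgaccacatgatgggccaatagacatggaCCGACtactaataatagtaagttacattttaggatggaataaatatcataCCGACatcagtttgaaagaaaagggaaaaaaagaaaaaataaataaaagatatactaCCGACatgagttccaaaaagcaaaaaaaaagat
COR15A: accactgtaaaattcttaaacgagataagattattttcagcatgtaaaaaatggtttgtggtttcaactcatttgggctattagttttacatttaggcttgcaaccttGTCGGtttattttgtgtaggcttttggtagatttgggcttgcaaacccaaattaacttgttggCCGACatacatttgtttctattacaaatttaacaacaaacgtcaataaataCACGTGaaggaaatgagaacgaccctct
LTI78 held 3 cores, starting 140, 90 and 33 bases before the gene start, and COR15A held 2 cores, 142 and 79 bases before it, and 1 G-box 28 bases before it. Besides these, LTI30 held 3 cores, and the other 7 of the 10 cold genes, the called KIN1 and COR15B among them, had 0 cores in this window. Over all loci kept, the core was in 12.9% of promoters, against 12% of those called higher and 11.5% of those called lower, so the calls did not stand apart. The G-box was in 12% of promoters called higher, 6.06% of those called lower and 7.26% of all. GACNCTT, part of the nitrate-responsive element, was in 8% of promoters called higher, 7.88% of those called lower and 6.88% of all. These shares were not tested.

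**Figure D3:**
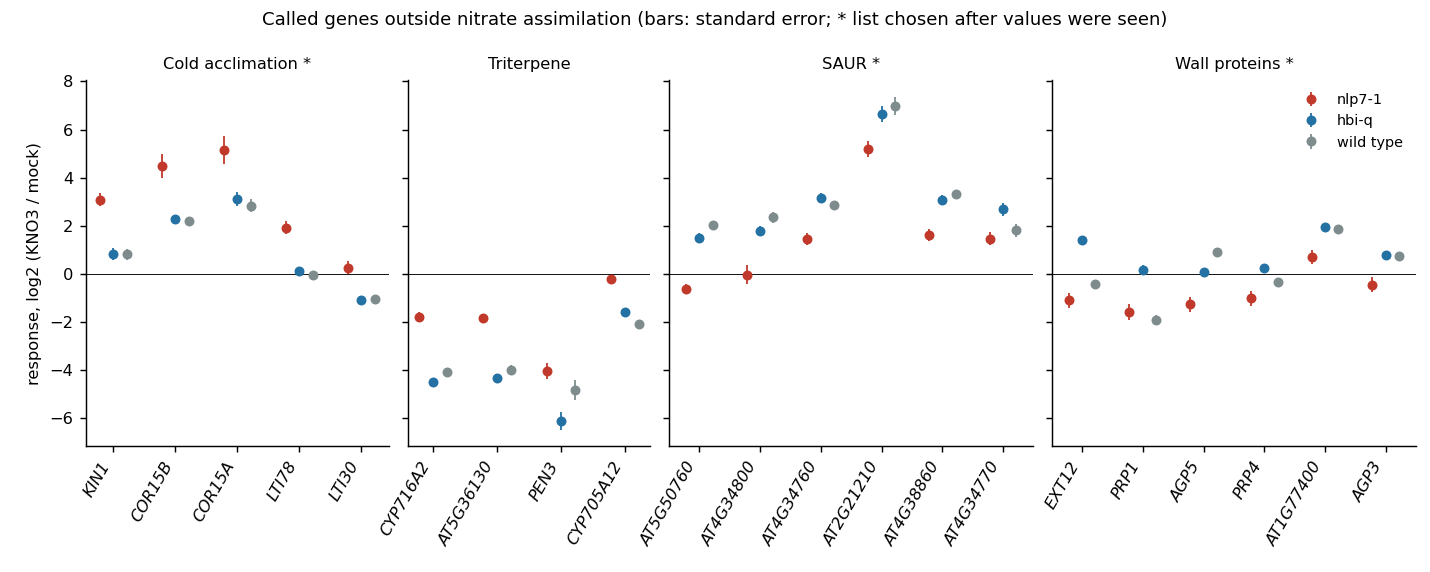
Response to KNO3 over mock (log2, vertical axis) of called genes outside nitrate assimilation in nlp7-1, hbi-q and wild type, from the authors' tables, with bars of 1 standard error. Cold acclimation and triterpene genes are higher in nlp7-1 than in hbi-q, and the SAUR and wall protein genes are lower, while hbi-q lies close to wild type for many of them but not, among others, for EXT12, PRP1 and PEN3.

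Of the auxin-responsive SAUR genes, which promote cell expansion, several had a called lower response in nlp7-1. The list was again chosen after the called loci had been read, so its counts describe and support nothing. Of its 20 kept members, 6 were called lower and 0 higher, beside 0.939% and 0.853% of all loci. In the list 4 lay above 0, and the median difference was -0.73. AT5G50760 had -0.62 ± 0.21 in nlp7-1, 1.50 ± 0.20 in hbi-q and 2.01 ± 0.20 in wild type in the authors' deposited tables, a difference of -2.12 ± 0.29 (adjusted p = 8.5e-11). AT4G34760 rose in both mutants, with 1.46 ± 0.25 in nlp7-1 and 3.17 ± 0.21 in hbi-q in the authors' deposited tables, a difference of -1.70 ± 0.33 (adjusted p = 3.41e-05). The other 4 were AT4G34800 (-1.83 ± 0.43), AT2G21210 (-1.47 ± 0.47), AT4G38860 (-1.47 ± 0.31) and AT4G34770 (-1.22 ± 0.38). Several SAUR genes lie side by side as similar copies, so their counts are uncertain.

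Some structural proteins of the cell wall had a called lower response too. EXT12, an extensin-like gene, fell in nlp7-1 at -1.10 ± 0.32 and rose in hbi-q at 1.41 ± 0.14, with -0.44 ± 0.14 in wild type, in the authors' deposited tables. The difference was -2.51 ± 0.35 (adjusted p = 5.32e-10), and EXT12 with UGT74E2 were the 2 loci called in opposite directions in the mutants. PRP1, a proline-rich wall protein of root hairs, had -1.59 ± 0.33 in nlp7-1, 0.16 ± 0.20 in hbi-q and -1.92 ± 0.22 in wild type in the authors' deposited tables, so hbi-q was the one apart from wild type. Its difference was -1.75 ± 0.38 (adjusted p = 0.000461). Called members also included the arabinogalactan proteins AGP5 (-1.33 ± 0.34) and AGP3 (-1.24 ± 0.35), the proline-rich PRP4 (-1.26 ± 0.33) and the extensin-like AT1G77400 (-1.26 ± 0.31). Of 74 extensin, proline-rich and arabinogalactan genes, 11 were called lower and 0 higher, beside 0.939% and 0.853% of all loci. In the list 8 lay above 0, and the median was -0.57. At an adjusted p under 0.01, 6 were called lower, and within classes of GC content 9 lower and 1 higher. This list too was chosen after the values were seen and was narrowed once, from a form that also took hydroxyproline-rich glycoproteins and had 14 of 146 lower, 0 higher and a median of -0.42.

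Ribosomal protein genes, which supply the translation machinery of growing cells, lay below 0 in nlp7-1 minus hbi-q with small single differences. Of 298 kept members, 276 lay below 0, with a median difference of -0.56, beside -0.03 over all loci. By adjusted p alone 49 were lower, beside 3.21% of all loci. With 2-fold 5 were called lower and 0 higher, beside 0.939% and 0.853% of all loci. The 5 were AT2G40205, AT3G08520 and AT1G56045 of the L41 family, AT3G56340 of the S26e family and AT2G41840 of the S5 family, with differences between -1.34 and -1.01. The members that rose by the authors' deposited tables were 30 in nlp7-1, 139 in hbi-q and 138 in wild type, and the median responses were 0.39, 0.97 and 0.98 in that order. The L41 genes are near-identical short copies, so each count is uncertain. With the median subtracted within classes of transcript length, 0 members were called and the median was -0.37, and within classes of GC content 7 were called lower and the median was -0.51. At an adjusted p under 0.01, 0 were called.

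Photosynthesis genes, used here as markers of shoot tissue, had a similar shift. Of 41 kept, 39 lay below 0, and the median was -0.56. In the list 4 were called lower and 0 higher, beside 0.939% and 0.853% of all loci. CAB1, a light-harvesting chlorophyll-binding protein, had -0.54 ± 0.31 in nlp7-1 and 1.12 ± 0.11 in hbi-q in the authors' deposited tables, a difference of -1.66 ± 0.33 (adjusted p = 7.02e-05). LHCB4.2 (-1.23 ± 0.30), CAB3 (-1.16 ± 0.36) and LHCB3 (-1.11 ± 0.24) were the others. With the median subtracted within classes of GC content, 1 was called lower. CAB1 and CAB3 are near-identical copies. Root markers had a median of -0.31 over 15 genes, with 0 called in either direction, 2 higher and 3 lower at an unadjusted p under 0.05 by the same test (8.42% and 14.7% over all loci), and a range from -0.99 to 0.76. In seedling libraries a change in the share of a tissue and a change in RNA per cell cannot be told apart.

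**Figure D4:**
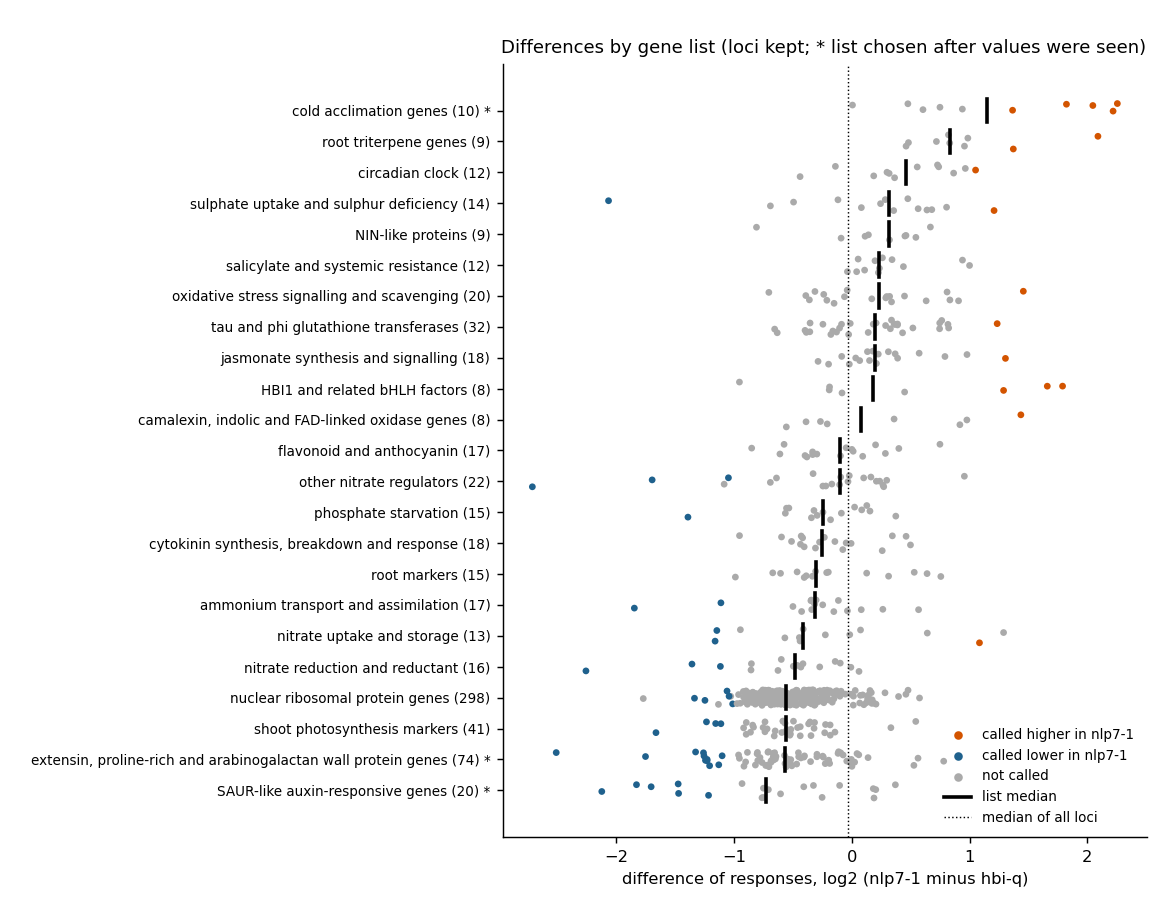
Difference of the responses, nlp7-1 minus hbi-q on the log2 scale (horizontal axis), of each kept member of the gene lists, with the number of loci in brackets. Bars are list medians, the dotted line is the median of all loci, and an asterisk marks lists added from the called loci. The unmarked lists too were chosen with earlier results of these data known. Cold acclimation and root triterpene genes lie to the right, with medians of 1.15 and 0.83, and SAUR, wall protein, photosynthesis and ribosomal protein genes lie to the left, with medians from -0.73 to -0.56.

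Short and GC-rich transcripts leaned towards lower responses in nlp7-1. Over 5 classes of 3515 loci by transcript GC content, the median difference was 0.07, 0.06, 0.00, -0.06 and -0.22 with increasing GC content, and the class highest in GC held 68 of the loci called lower and 18 of those called higher. Over 5 classes of transcript length it was -0.18, -0.08, -0.03, -0.01 and 0.09 with increasing length, and the class of shortest transcripts held 64 of those called lower and 32 of those called higher. Ribosomal protein transcripts had a median length of 968.5 bases, SAUR transcripts of 945.5 bases and all loci of 1743 bases. The part of composition and length in the differences beyond the settings given here was not tested. Subtracting the median within classes of GC content left 290 calls and within classes of length 291, of which 246 and 252 were also called without it. Within classes of length the split became 178 higher and 113 lower, beside 150 and 165 without them. NIA1, BT1, SULTR1;2, ASN2, RFNR1, SAG21 and CYP716A2 were called in the same direction in both.

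**Figure D5:**
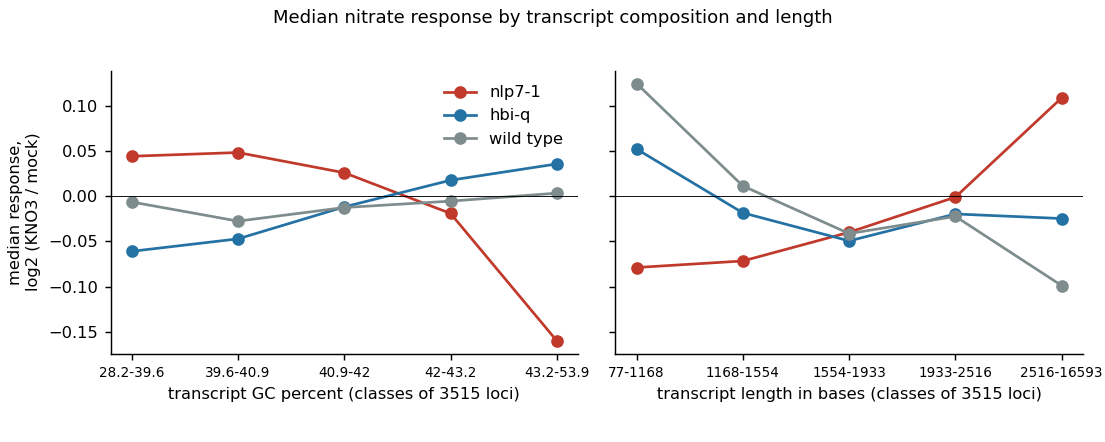
Median response to KNO3 over mock (log2, vertical axis) in nlp7-1, hbi-q and wild type over 5 classes of 3515 loci each, by transcript GC percent (left) and by transcript length in bases (right). In nlp7-1 the median drops to -0.16 in the class with the highest GC content and climbs to 0.11 in the class with the longest transcripts. The medians of hbi-q and wild type do neither. From the shortest to the longest class, that of wild type goes from 0.13 to -0.10 and that of hbi-q from 0.05 to -0.02.

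The jasmonate, oxidative stress and glutathione transferase lists held 1 called member each, all higher. Over all loci 0.853% were called higher and 0.939% lower. In the jasmonate list 1 of 18 members was called, the allene oxide cyclase AOC2 of jasmonate synthesis (1.30 ± 0.41, adjusted p = 0.0372), and TAT3, a jasmonate-inducible tyrosine aminotransferase outside that list, had one of the 10 highest differences (2.32 ± 0.38, adjusted p = 2.67e-07). TAT3 rose in nlp7-1, at 1.58 ± 0.21, and stood at -0.74 ± 0.32 in hbi-q in the authors' deposited tables. In the oxidative stress list of 20, JUB1, a NAC factor induced by hydrogen peroxide, was the 1 called member, at -1.37 ± 0.32 in nlp7-1, -2.83 ± 0.16 in hbi-q and -1.19 ± 0.18 in wild type in the authors' deposited tables, a difference of 1.46 ± 0.35 (adjusted p = 0.00262). The NADPH oxidase genes RBOHA (0.91 ± 0.26), RBOHE (0.83 ± 0.26) and RBOHF (0.81 ± 0.26) had an adjusted p under 0.05 without 2-fold, and each had a value of -0.31 or nearer 0 in nlp7-1 in the authors' deposited tables. GSTU21, 1 of 32 tau and phi glutathione transferases, was called (1.23 ± 0.28, adjusted p = 0.000925).

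Of 12 salicylate genes 0 were called with the 2-fold minimum. By adjusted p of the z test alone 2 were higher and 0 lower, beside 2.01% and 3.21% of all loci. At an unadjusted p under 0.05 there were also 2 higher and 0 lower, beside 8.42% and 14.7% of all loci. CBP60G, a calmodulin-binding activator of salicylate synthesis, missed 2-fold narrowly at 1.00 ± 0.21 (adjusted p = 0.000285), and FMO1, the monooxygenase of systemic resistance, was at 0.94 ± 0.25 (adjusted p = 0.0101), and these were the 2. The FAD-linked oxidase AT1G26410, the 1 called of 8 camalexin, indolic and FAD-linked oxidase genes, was at 1.44 ± 0.36 (adjusted p = 0.00405) with -0.31 ± 0.30 in nlp7-1 and -1.75 ± 0.19 in hbi-q, both far from the 3.28 ± 0.34 of wild type, in the authors' deposited tables. For that gene the mutants were thus nearer each other than either was to wild type. Over all loci 0.853% were called higher. The list of 8 as a whole also stood apart from wild type in both mutants. Its median response was -0.50 in nlp7-1, -0.84 in hbi-q and 2.02 in wild type, from the authors' deposited tables. By the authors' criterion, 6 of the 8 rose in wild type, 1 in nlp7-1 and 1 in hbi-q. Falls numbered 0 in wild type, 1 in nlp7-1 and 4 in hbi-q. Neither mutant was tested against wild type. Of 17 flavonoid and anthocyanin genes 0 were called with the 2-fold minimum. By adjusted p of the z test alone 1 was higher and 0 lower, beside 2.01% and 3.21% of all loci. At an unadjusted p under 0.05, 2 were higher and 2 lower, beside 8.42% and 14.7% of all loci. MYB90, an anthocyanin regulator, had -4.62 ± 0.16 in nlp7-1 and -4.63 ± 0.10 in hbi-q in the authors' deposited tables. The phosphatase PAP17 of phosphate starvation was called lower (-1.39 ± 0.35, adjusted p = 0.00426), 1 of 15 in its list, beside 0.939% of all loci. RVE1, a MYB-like factor linked to the clock, was called higher (1.05 ± 0.28, adjusted p = 0.00866), 1 of 12, beside 0.853% of all loci. Of the 12 clock genes, 10 lay above 0.

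Outside the lists, SAG21, a late embryogenesis abundant protein, responded with 0.30 ± 0.18 in nlp7-1, 2.44 ± 0.08 in hbi-q and 2.39 ± 0.08 in wild type in the authors' deposited tables, a difference of -2.14 ± 0.19 (adjusted p = 1.42e-24). The uncharacterized gene AT3G18560 had 0.18 ± 0.13 in nlp7-1 and 1.83 ± 0.08 in hbi-q in the authors' deposited tables, a difference of -1.65 ± 0.16 (adjusted p = 7.3e-23). Both thus lacked in nlp7-1 a response that passed the 2-fold criterion in hbi-q. AT5G35940, a mannose-binding lectin family gene, had 0.50 ± 0.13 in nlp7-1, -1.43 ± 0.16 in hbi-q and -2.11 ± 0.16 in wild type in the authors' deposited tables, a difference of 1.93 ± 0.21 (adjusted p = 1.43e-17). AT3G23510, annotated as a cyclopropane-fatty-acyl-phospholipid synthase, had 0.61 ± 0.16 in nlp7-1, -0.997 ± 0.10 in hbi-q and -1.56 ± 0.11 in wild type in the authors' deposited tables, a difference of 1.61 ± 0.19 (adjusted p = 2.9e-14). For these genes too, hbi-q lay on the side of wild type.

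The remaining loci among the 10 highest differences were AT1G62975, a bHLH family gene (2.26 ± 0.34), AT5G38100, a methyltransferase family gene (2.13 ± 0.29), and the cysteine-rich peptide gene LCR85 (2.14 ± 0.34). At the other end DIN2, a dark-induced glycosyl hydrolase, had the lowest value, -3.49 ± 0.56 (adjusted p = 1.36e-07), with -3.21 ± 0.43 in nlp7-1 and 0.28 ± 0.35 in hbi-q in the authors' deposited tables. Its base mean was 53.5 in the hbi-q table and 164 in the nlp7-1 table, so it left the test at a minimum of 100. DIN2 was not among the 27 loci called with the robust scaling. DEG14 (-2.74 ± 0.80, adjusted p = 0.0215), AT1G79075 (-2.25 ± 0.70, adjusted p = 0.0346) and AT1G49500 (-2.56 ± 0.65, adjusted p = 0.00499) were also among the 10 lowest, with larger errors. At the base mean minimum, AT2G01610 (base mean 50.01, difference -0.74 ± 0.36) and AT5G26300 (base mean 50.01, difference 0.81 ± 0.34) lay just inside, and AT1G70650 (base mean 49.98, difference 0.29 ± 0.37) and AT1G49180 (base mean 49.98, difference 0.53 ± 0.44) just outside.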

How the data were processed

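The labels' protocols give the growth, treatment and extraction, and the series design text the sequencing on a BGISEQ-500. Per the submitters' processing notes, HISAT, Bowtie2, HTSeq, DESeq2 and TAIR10 were used; their versions were not given in the sources used. Per the file headers, the authors' tables hold for each gene a base mean, which is a signal of normalized counts averaged over libraries, a log2 fold change with its standard error on the log2 scale, a test score and a p-value with its adjusted p-value. The deposited tables of nlp7-1, hbi-q and wild type were used, and those with H2O2 were not. Counts per library are not among the values used here, so no count model was fitted. The depth of each library is therefore unknown, and precision is that of the deposited standard errors. The labels call the 3 libraries of a group biological replicates. Which libraries entered each fit, and whether strand was kept, the labels and headers do not say. Base means were equal for all 22954 loci of the hbi-q and wild-type tables. At a base mean of at least 50, 181 loci were listed for hbi-q only and 142 for nlp7-1 only, and were left out.

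The difference of log2 fold changes was divided by the root of the summed squared errors, compared with the normal distribution and adjusted over 17575 loci (Benjamini-Hochberg, Python 3.11.15, numpy 2.4.6, pandas 2.3.3, scipy 1.17.1). It takes both responses as independent, and genotype cannot be told apart from any difference between the tables' processing. Loci named are the 10 highest and 10 lowest called, those called in opposite directions, up to 6 called members per list and direction, NLP7, the HBI1 list, NRT2.1, NIA1, NIR1, LBD37 and those at the base mean minimum. Other list members and loci called in every setting were named after their values were seen. All 17575 loci matched TAIR10.1 by ID, which gave names, products, transcript GC content and length, and promoters. Members and lists were chosen with earlier results of these data known. Of the lists, 20 were written first, the ribosomal one was rewritten because its first pattern found few genes, and 3 (cold, SAUR and wall proteins) were added from the called loci. The DRE/CRT core was added after the cold genes were seen, and LTI78 and COR15A were printed after promoters had been scanned for matches.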

Additional observations from a re-analysis of the deposited data

Results flagged for a closer look

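EXT12 fell in nlp7-1 and rose in hbi-q by the authors' criterion, and the test of the difference passed at -2.51 ± 0.35 (adjusted p = 5.32e-10). It is the only one of the pair that was also called after scaling by the robust SD. UGT74E2, a glucosyltransferase of indole-3-butyric acid, likewise fell in nlp7-1, at -1.11 ± 0.33, and rose in hbi-q, at 1.04 ± 0.39, in the authors' deposited tables, with 0.58 ± 0.39 in wild type. Its difference was -2.15 ± 0.51 (adjusted p = 0.00209). What sets these 2 genes apart was not tested.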

How the results depend on the processing

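The number of libraries, 3 per group, and the lack of values per library limit every count. No paired analysis was possible because the deposited tables hold no values per library, and for the same reason no replicate could be left out. In the main setting 150 loci were higher and 165 lower in nlp7-1, with 23 and 77 among loci that rose in wild type, 51 and 5 among loci that fell, and 2 called in opposite directions. With no fold minimum these became 354 and 564, 37 and 212, and 97 and 13. With a t distribution with 8 degrees of freedom they became 4 and 7, 0 and 7, and 4 and 0, with 0 in opposite directions. With z scaled by its robust SD they became 12 and 15, 2 and 12, and 8 and 0, with 1 in opposite directions. An adjusted p under 0.01 left 99 higher, and 11 higher among loci that rose in wild type, and a base mean minimum of 100 left 12 there. With a minimum of 10, and with no minimum, 5 loci were in opposite directions. Classes of transcript length, added after the data were seen, left 2 lower among loci that fell. All other counts of these kinds stayed within 1.5 times. Of 69 named genes, BEE1, BEE3, CIB5, IBH1, PRE6, NIR1 and NLP7 had no call in the main setting. None of the 69 reversed in any setting. Among the called ones, 54 lost their call under the t distribution, 51 under robust scaling and 15 at an adjusted p under 0.01. Classes of GC content and of length cost 10 each, the subtracted median 3 and no base mean minimum 1. A base mean minimum of 100 kept only 56 of the 69 in the test, with their main result. With the median subtracted, 162 loci were higher and 143 lower. The cause of these changes was not tested beyond what each setting does to the threshold or error.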

Other observations

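With the robust scaling, 27 loci were called, and these included genes outside the lists that the text has not yet described, named after their values were seen. MIZ1, a gene required for root hydrotropism, had -0.53 in nlp7-1, 1.06 in hbi-q and 1.32 in wild type, and the difference was -1.59. The boron exporter gene BOR1 had -0.24 in nlp7-1, 1.01 in hbi-q and 0.81 in wild type, with a difference of -1.25. TPS10, of the trehalose phosphate synthase family, had -0.59 in nlp7-1, 0.75 in hbi-q and 0.87 in wild type, with a difference of -1.34. AT5G62720, an HPP family membrane protein gene, rose in both mutants, with 6.09 in nlp7-1, 4.41 in hbi-q and 4.42 in wild type, a difference of 1.68. These responses are those of the authors' deposited tables. In each of these 4 genes, hbi-q lay nearer wild type than nlp7-1 did, as in 24 of the 27 loci, beside 73.2% of all loci. The 27 were picked by the same nlp7-1 and hbi-q responses, so this nearness describes and supports nothing. The exceptions among the 27 were EXT12, NIA1 and AT1G64590, which had -3.42 in nlp7-1, -4.98 in hbi-q and -3.87 in wild type in the authors' deposited tables.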
